A study of Mus musculus with 8 samples.

Results

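Igf2, H19, Mest, Nnat, Plagl1, Dlk1, Peg3, Grb10, Meg3 and Cdkn1c are imprinted genes that are active in extraembryonic tissue of the mouse. They were taken by name, 10 of the 23091 genes listed, and each was found in all 8 deposited tables. The study measured single cells of the extraembryonic yolk sac at E9.5. Cells were sorted into plates and their RNA was read well by well by mCEL-Seq2, which counts each transcript once at its 3' end by a random identifier. The level of a gene is given as CPM, the transcripts of that gene per 1000000 transcripts in the wells summed, so it does not depend on gene length.

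The A1/A2 group holds 4 libraries of cells labelled as A1 and A2 cells, the early myeloid precursors of the yolk sac. The EMP group holds 4 libraries labelled as erythromyeloid progenitors, the cells upstream of them, which the labels describe as run alongside and not used in the published work. All 8 libraries came from wild type C57BL/6N embryos with no treatment, were assigned to batch A, and were described as CD45+ sorts. Nothing in the labels says that libraries came from separate litters, so the p-values measure the spread between libraries, which may be technical.

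An imprinted gene is expressed mainly from the copy inherited from 1 parent, because the copies carry different DNA methylation at a control region. Many imprinted genes act on growth of the embryo and its membranes: Igf2 and Dlk1 from the paternal copy are best known as growth-promoting, and H19, Grb10 and Cdkn1c from the maternal copy as growth-restraining. Igf2 and H19 lie near each other and share a control region, as do Dlk1 and Meg3. The deposited values are counts per gene and do not separate the parental copies.

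RefSeq promoter windows were found for 8 of the 10 genes, all but H19 and Cdkn1c. The 250 bases before the annotated start are shown for Igf2, Mest, Plagl1 and Grb10, because these 4 genes were higher together in wells with the endothelial gene Cdh5 than in endoderm wells. For Igf2, Mest and Grb10, which have several annotated starts, the start with the most CG is shown. Capitals mark each CG, the dinucleotide that carries DNA methylation. Sequences are given 5′ to 3′ on the gene's strand, in build GRCm38.p6, at chr7:142658805-142659054 (minus strand) for Igf2, chr6:30737800-30738049 (plus strand) for Mest, chr10:13090582-13090831 (plus strand) for Plagl1 and chr11:12037421-12037670 (minus strand) for Grb10.

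Igf2: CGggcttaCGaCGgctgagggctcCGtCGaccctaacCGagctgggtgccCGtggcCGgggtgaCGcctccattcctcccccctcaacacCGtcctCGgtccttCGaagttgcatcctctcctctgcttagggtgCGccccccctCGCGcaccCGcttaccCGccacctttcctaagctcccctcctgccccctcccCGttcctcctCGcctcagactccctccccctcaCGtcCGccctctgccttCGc

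Mest: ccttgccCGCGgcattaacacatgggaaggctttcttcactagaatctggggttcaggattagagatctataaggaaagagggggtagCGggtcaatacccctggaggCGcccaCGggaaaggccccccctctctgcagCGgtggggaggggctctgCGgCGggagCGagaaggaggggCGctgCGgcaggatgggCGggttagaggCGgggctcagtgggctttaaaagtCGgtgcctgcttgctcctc

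Plagl1: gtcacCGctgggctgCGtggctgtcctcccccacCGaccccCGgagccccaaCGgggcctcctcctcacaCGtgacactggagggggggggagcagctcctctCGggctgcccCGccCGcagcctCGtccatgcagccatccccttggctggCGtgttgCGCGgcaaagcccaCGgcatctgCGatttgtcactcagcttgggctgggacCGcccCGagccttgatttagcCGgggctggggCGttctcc

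Grb10: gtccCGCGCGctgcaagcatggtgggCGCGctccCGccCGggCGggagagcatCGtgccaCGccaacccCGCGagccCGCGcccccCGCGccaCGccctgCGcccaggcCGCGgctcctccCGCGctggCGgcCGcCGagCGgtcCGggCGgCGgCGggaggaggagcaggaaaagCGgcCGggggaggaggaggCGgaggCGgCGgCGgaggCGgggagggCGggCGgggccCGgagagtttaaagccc

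The Grb10 window held 40 CG, and 1.31% of all 32851 RefSeq windows held at least as many, but its other start held 8 CG, which 43.0% of windows reached. The Igf2 window held 22 CG, the Plagl1 window 19 and the Mest window 14, against a median of 6 over all windows. The other Igf2 starts held 10, 6 and 1 CG, so the Igf2 starts differ widely from each other. TGCCGC, the core bound by the imprint-maintaining factor ZFP57, was searched on both strands. It was found in 4 of the 15 windows of the 8 genes, against 8.68% of all windows. These 4 windows came from 3 genes, Mest, Plagl1 and Meg3, and Mest starts 1 and 2 both held it.

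Wells with at least 1000 transcripts were kept, which left 568 A1/A2 wells of 768 and 655 EMP wells of 768. The kept wells of a library held between 2558197 and 3559612 transcripts in the A1/A2 group and between 3888853 and 5418136 in the EMP group. Wells were classed by marker: 58 high Apoa1 wells, in which Apoa1 of the yolk sac endoderm made up at least 0.5% of transcripts, and otherwise the most abundant of Cdh5 (endothelium, 31 wells), Csf1r (macrophage lineage, 219), Kit (progenitors, 162) and Col1a1 (mesenchyme, 59). The remaining 694 wells had fewer than 2 transcripts of the leading marker, or a tie. No A1/A2 well was classed as a Cdh5 well. Endoderm, endothelial and mesenchymal transcripts were therefore present in libraries described as CD45+ sorts. The 12 endoderm markers summed to between 4475.6 and 22674.7 CPM in Cdh5 wells, 7012.1 to 11709.3 CPM in Csf1r wells of the A1/A2 libraries and 5535.0 to 12098.4 CPM in Kit wells of the EMP libraries, against 28932.2 to 48178.3 CPM in high Apoa1 wells. Endoderm RNA was thus measured in these classes too. Levels are given for sums of at least 5 wells, and of at least 3 for high Apoa1 wells. Tests of a class against high Apoa1 wells used the libraries with at least 5 wells of both. Beside each class level the text gives the carry-over level, which is the level a gene would have if it came with Apoa1 at the ratio seen in the high Apoa1 wells of the same library.

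Summed over all kept wells, the 10 genes made up 0.283%, 0.526%, 0.375% and 0.389% of transcripts in A1/A2 libraries 1 to 4, against 0.684%, 0.870%, 0.732% and 0.683% in EMP libraries 1 to 4. Every A1/A2 library lay below every EMP library. H19 alone gave between 52.7% and 56.9% of these transcripts in the A1/A2 libraries and between 52.0% and 62.2% in the EMP libraries. Of the 10 genes, 7 were called lower in A1/A2 than in EMP libraries and 0 higher by edgeR's quasi-likelihood test at an adjusted p of 5% over all 11144 genes tested, where 15.4% of all genes were called lower. The median log2 fold change of the 10 genes was -0.88, against -0.02 over all genes tested. Markers of other cells moved with this difference. The 12 endoderm markers summed to 8982.7 to 15807.2 CPM in A1/A2 libraries, against 15549.8 to 23470.9 CPM in EMP libraries, and the 12 endothelial markers to 85.4 to 112.7 CPM in A1/A2 libraries, against 229.9 to 485.4 CPM in EMP libraries. All 12 of either list were detected in both groups, and values within classes and in wells with little Apoa1 are given further on.

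Igf2, the fetal growth factor that signals through the IGF1 and insulin receptors, had 563.8, 907.6, 571.4 and 596.3 CPM in A1/A2 libraries 1 to 4, against 1671, 1459, 1760 and 1541 CPM in EMP libraries 1 to 4. A1/A2 library 2 stood above the other A1/A2 libraries, and the groups did not overlap. The log2 fold change was -1.31 ± 0.14 (SE, edgeR adjusted p = 6.81e-05). H19, the maternally expressed noncoding RNA beside Igf2, had 1490, 2986, 2133 and 2182 CPM in A1/A2 libraries, against 3606, 5416, 3805 and 3717 CPM in EMP libraries. The groups did not overlap, and EMP library 2 was the highest. H19 was lower by edgeR, with a log2 fold change of -0.95 ± 0.21 (SE, adjusted p = 0.00743).

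Plagl1, a paternally expressed zinc finger transcription factor, had 20.4, 18.3, 13.4 and 14.5 CPM in A1/A2 libraries, against 59.4, 30.7, 46.3 and 35.3 CPM in EMP libraries. The groups were apart, with a log2 fold change of -1.40 ± 0.22 (SE, edgeR adjusted p = 0.000829). Peg3, another paternally expressed zinc finger gene, had 193.6, 326.8, 265.4 and 234.5 CPM in A1/A2 libraries, against 416.1, 476.1, 497.1 and 365.8 CPM in EMP libraries. Its groups did not overlap either, and its log2 fold change was -0.81 ± 0.16 (SE, edgeR adjusted p = 0.00280).

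Grb10, an adaptor that dampens insulin and IGF receptor signalling, had 28.2, 36.3, 44.0 and 31.7 CPM in A1/A2 libraries, against 68.5, 76.3, 65.7 and 62.8 CPM in EMP libraries. All A1/A2 libraries lay below all EMP libraries, at a log2 fold change of -0.99 ± 0.14 (SE, edgeR adjusted p = 0.000359). Cdkn1c, which encodes the cell cycle inhibitor p57, had 180.6, 304.7, 355.6 and 321.5 CPM in A1/A2 libraries, against 376.8, 465.3, 409.1 and 451.6 CPM in EMP libraries. The highest A1/A2 library and the lowest EMP library were close, and the log2 fold change was -0.58 ± 0.17 (SE, edgeR adjusted p = 0.0256).

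Mest, a paternally expressed gene of mesoderm that encodes a hydrolase-like protein, was scarce, with 14.9, 14.4, 1.82 and 2.03 CPM in A1/A2 libraries, against 57.5, 20.5, 27.3 and 43.8 CPM in EMP libraries. The groups did not overlap, and Mest had the largest fold among the 7, a log2 fold change of -2.19 ± 0.62 (SE, edgeR adjusted p = 0.0296). Dlk1, a membrane protein with EGF repeats, had 104.5, 136.0, 83.3 and 96.2 CPM in A1/A2 libraries, against 128.6, 157.7, 108.2 and 149.0 CPM in EMP libraries. Its groups overlapped, and it did not pass, at a log2 fold change of -0.40 ± 0.16 (SE, edgeR adjusted p = 0.0691).

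Meg3, the maternally expressed noncoding RNA of the Dlk1 locus, had 184.9, 490.0, 277.7 and 404.3 CPM in A1/A2 libraries, against 400.5, 588.7, 562.3 and 452.1 CPM in EMP libraries. It overlapped between the groups, with a log2 fold change of -0.59 ± 0.27 (SE, edgeR adjusted p = 0.124). Nnat, which encodes the small membrane protein neuronatin, had 47.1, 36.4, 6.18 and 3.77 CPM in A1/A2 libraries, against 61.2, 13.7, 39.7 and 7.46 CPM in EMP libraries. Libraries of both groups were mixed in order, and the log2 fold change was -0.45 ± 0.93 (SE, edgeR adjusted p = 0.746). The libraries rich in Nnat were also rich in Col1a1, with 108.5, 117.3, 29.5 and 12.2 CPM of Col1a1 in A1/A2 libraries, against 356.5, 39.6, 174.4 and 9.77 CPM in EMP libraries.

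**Figure D1:**
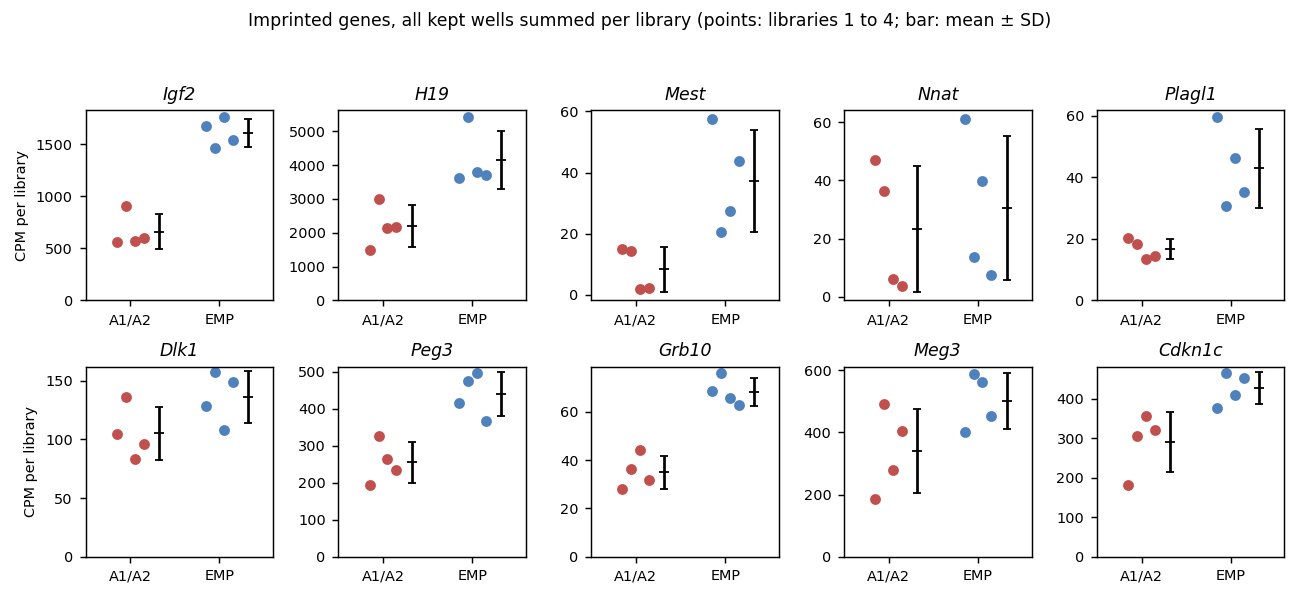
CPM of each imprinted gene over all kept wells of a library, with A1/A2 libraries in red and EMP libraries in blue, 4 points a group, and the mean with its SD as a black bar; each panel has its own linear axis. Igf2 sits between 563.8 and 907.6 CPM in A1/A2 libraries and between 1459 and 1760 CPM in EMP libraries, while Nnat, Dlk1 and Meg3 overlap.

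A sum over wells cannot tell fewer cells of a type from less RNA per cell. The share of wells with a transcript was also counted, after thinning each well to 1000 transcripts. Igf2 was seen in 35.6% to 53.1% of wells in A1/A2 libraries, against 61.9% to 70.8% in EMP libraries. Mest was seen in 0% to 1.40% of A1/A2 wells, against 3.95% to 7.48% of EMP wells, and Grb10 in 0.758% to 4.90% of A1/A2 wells, against 5.44% to 9.60% of EMP wells. These 3 genes were the members whose groups did not overlap on this measure, all lower in A1/A2, where 3.16% of the 7890 genes counted behaved in that way. With the sums themselves taken from the thinned wells, edgeR called 3 of the 6 members that passed the filter on low counts lower, Igf2 (-1.19), H19 (-0.52) and Peg3 (-0.94). Of all genes in that fit, 128 of 2320 were called in either direction. Without thinning, Igf2 was seen in 84.1% to 92.3% of wells in A1/A2 libraries, against 94.7% to 96.9% in EMP libraries. Of all 1223 kept wells, 1120 held both Igf2 and H19, 95 held H19 alone, 4 held Igf2 alone and 4 held neither.

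The high Apoa1 wells of both groups were set side by side. They were not alike in all markers: the 12 macrophage markers summed to 130.3 to 461.7 CPM in those of A1/A2 libraries, with 11 of 12 detected, against 18.2 to 76.0 CPM in those of EMP libraries, with 10 detected, and the 12 endoderm markers to 30815.5 to 48178.3 CPM, against 28932.2 to 35713.9 CPM. The part of these markers in the comparison was not tested. Igf2 had 1812, 1292, 1151 and 1722 CPM in high Apoa1 wells of A1/A2 libraries, against 1156, 1444, 1681 and 1335 CPM in those of EMP libraries, and the groups overlapped throughout. Of the 7 members tested, 0 were called in either direction by edgeR over 3682 genes, where 0.109% of genes were called lower and 1.87% higher, and 376 genes had an unadjusted p under 0.05. Igf2 had a log2 fold change of 0.06 ± 0.16 (SE, edgeR adjusted p = 0.958), and H19 one of -0.14 ± 0.15 (adjusted p = 0.840). Dlk1 came nearest to the threshold. It had 423.5, 305.6, 223.3 and 430.6 CPM in high Apoa1 wells of A1/A2 libraries, against 215.0, 218.1, 145.5 and 197.6 CPM in those of EMP libraries, which did not overlap (log2 fold change 0.67 ± 0.20 SE, edgeR adjusted p = 0.0762). These sums rest on 3 to 15 wells each, and Dlk1 passed without A1/A2 library 3 (0.81) and Cdkn1c without A1/A2 library 2 (0.85).

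Without the high Apoa1 wells, 8 of the 10 genes were called lower in A1/A2 libraries, where 18.1% of 10911 genes were called lower. Dlk1 joined the 7 named above, at -0.59 ± 0.14 (SE, edgeR adjusted p = 0.00616). In wells with Apoa1 under 0.05% of transcripts, 5 of the 10 were called lower, where 14.3% of 8408 genes were, and these were Igf2 (-2.61), H19 (-1.36), Mest (-3.05), Plagl1 (-1.57) and Grb10 (-2.18). The difference between groups was then tested against that in the high Apoa1 wells, with library as a block. For 8 of the 10 genes the difference was more positive in high Apoa1 wells, where 1.38% of 9994 genes were called that way by edgeR. Igf2 had a difference of log2 fold changes of 1.39 ± 0.20 (SE, edgeR adjusted p = 3.37e-08), Dlk1 of 1.25 ± 0.23 (adjusted p = 6.08e-05) and H19 of 0.76 ± 0.20 (adjusted p = 0.0190). In this fit edgeR shrank the spread of each gene fully to that of all genes. The count was 5 without A1/A2 library 3 (64 of 10146 genes called) and 4 without A1/A2 library 4 (89 of 10185 genes called).

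Igf2 was not at 1 level over cell classes. In Cdh5 wells of EMP libraries 1 to 4 it had 2424, 7581, 4207 and 5511 CPM, which was 3.66 to 40.3 times the carry-over level of the same library. In Col1a1 wells it had 5272 and 2486 CPM in A1/A2 libraries 1 and 2, against 2829, 2858, 5187 and 1191 CPM in EMP libraries 1 to 4. Kit wells of the EMP libraries held 1313, 1280, 1577 and 1372 CPM, or 2.60 to 7.71 times the carry-over level. Csf1r wells of the A1/A2 libraries held 268.7, 615.3, 456.7 and 502.9 CPM, or 1.08 to 2.41 times the carry-over level. Those of EMP libraries 1 to 3 held 897.8 to 1339 CPM, or 1.22 to 1.90 times the carry-over level.

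The order of Igf2 was thus Cdh5 and Col1a1 wells above high Apoa1 and Kit wells, except for the Col1a1 wells of EMP library 4, and all of these above Csf1r wells of the A1/A2 libraries. Cdh5 and Col1a1 wells overlapped with each other, as did Kit and high Apoa1 wells. Csf1r wells of the EMP libraries lay above those of the A1/A2 libraries and overlapped with Kit and high Apoa1 wells. Every Cdh5 sum stood above every high Apoa1 sum. EMP library 4, the lowest of the Col1a1 sums, had 55.8 CPM of Col1a1 in its Col1a1 wells, against 674.8 to 2594 CPM in the other 3 EMP libraries.

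Cdh5 wells were compared with high Apoa1 wells of the same libraries, EMP 1, 2 and 4, with library as a block. Of the 9 members tested, 5 were called higher by edgeR, where 4.74% of 4476 genes were called higher. Igf2 was higher by a log2 fold change of 1.87 ± 0.24 (SE, edgeR adjusted p = 0.000467), Plagl1 by 3.46 ± 0.46 (adjusted p = 0.000616), Grb10 by 2.32 ± 0.28 (adjusted p = 0.000261) and Peg3 by 0.72 ± 0.19 (adjusted p = 0.0463). The Peg3 call did not hold with DESeq2 (adjusted p = 0.336), and its direction turned with any well that had a marker transcript (-0.32, where 4 members were called higher and 5 lower, and 2113 of 6977 genes in either direction) and with Apoa1 at 0.2% as the limit (-0.30). For Mest the fit gave 7.33 ± 0.46 (SE, edgeR adjusted p = 3.09e-06), with 5.00 counts in all in the high Apoa1 wells of the EMP libraries, so the size of this fold depends on very few counts. Mest passed the filter on low counts only through the Cdh5 wells, so its call as higher was close to set in advance. Plagl1 and Grb10 would not have passed that filter on their high Apoa1 sums alone, Plagl1 by more than Grb10. Their calls, and the count of 5, are thus not free of the filter. H19 (0.14 ± 0.17), Dlk1 (-0.59 ± 0.27), Meg3 (-0.44 ± 0.38) and Cdkn1c (-0.39 ± 0.20) did not pass. Without EMP library 4, Mest was the 1 member called, where 26 of 4544 genes were called in either direction. Igf2 was then at 1.77 and Grb10 at 2.39.

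Mest followed Igf2 in Cdh5 wells. It had 182.6, 856.8, 299.2 and 634.4 CPM in Cdh5 wells of EMP libraries 1 to 4, against 8.94, 3.27, 0 and 1.76 CPM in their high Apoa1 wells. In Kit wells it had 46.9, 12.1, 12.0 and 10.2 CPM, and in Csf1r wells of A1/A2 libraries 2.11, 1.89, 0.55 and 0.71 CPM. Cdh5 wells thus held Mest at a level that no Kit, Csf1r or high Apoa1 sum reached. Col1a1 wells of A1/A2 libraries 1 and 2 overlapped with them, at 163.6 to 332.1 CPM, against 0 to 125.0 CPM in those of EMP libraries 1 to 4.

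Plagl1 had 91.3, 261.9, 166.1 and 303.9 CPM in Cdh5 wells of EMP libraries, against 22.4, 37.6, 0 and 8.81 CPM in their high Apoa1 wells. Grb10 had 159.1, 349.3, 132.9 and 193.7 CPM in Cdh5 wells, against 31.3, 67.1, 18.2 and 42.3 CPM in high Apoa1 wells. For both genes every Cdh5 sum was above every high Apoa1 sum of the EMP libraries. Peg3 was closer, with 705.7, 769.6, 642.2 and 746.3 CPM in Cdh5 wells, against 421.1, 524.4, 345.9 and 447.4 CPM in high Apoa1 wells.

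**Figure D2:**
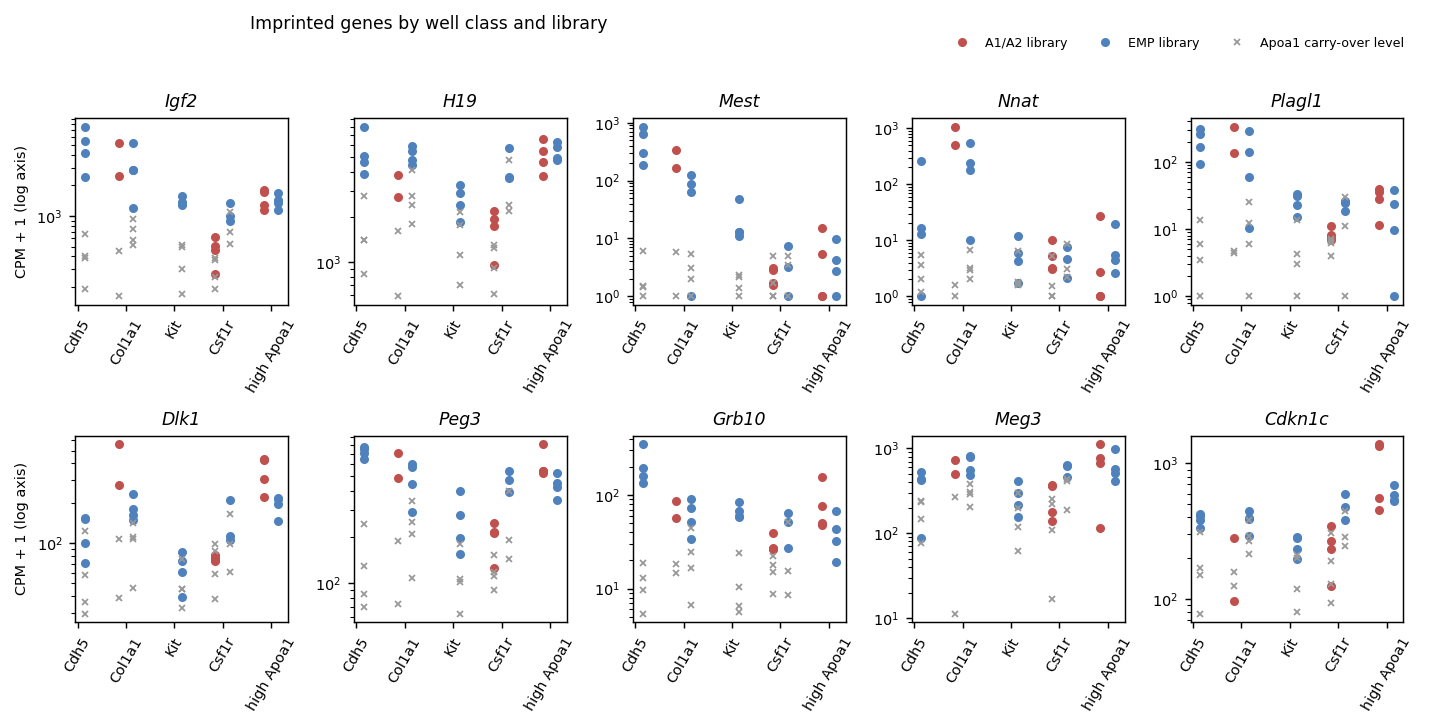
CPM + 1 on a log axis for each imprinted gene in Cdh5, Col1a1, Kit, Csf1r and high Apoa1 wells, with 1 point for each library sum (A1/A2 red, EMP blue) and grey crosses at the carry-over level of the same sum. Igf2, Mest, Plagl1 and Grb10 stand far above the crosses in Cdh5 wells, while Dlk1 of Csf1r wells in A1/A2 libraries lies at 72.2 to 80.7 CPM, from 0.789 to 1.96 times the cross of the same library.

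Nnat had its highest levels in Col1a1 wells. It had 1065 and 503.6 CPM there in A1/A2 libraries 1 and 2, against 238.2, 181.0, 550.0 and 9.30 CPM in EMP libraries 1 to 4. In high Apoa1 wells Nnat had 0, 1.76, 25.7 and 0 CPM in A1/A2 libraries, against 4.47, 1.64, 18.2 and 3.52 CPM in EMP libraries, from at most 6.00 counts a library. Apart from EMP library 4, Col1a1 wells held more Nnat than any high Apoa1 sum. In Cdh5 wells of EMP libraries it had 11.8, 262.1, 0 and 15.7 CPM, so EMP library 2 was alone.

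In Col1a1 wells against high Apoa1 wells of the same 4 libraries, 1 of the 8 members tested was called higher, where 2.09% of 5465 genes were called higher by edgeR. It was Plagl1, at a log2 fold change of 2.07 ± 0.43 (SE, edgeR adjusted p = 0.0170), with 133.2 CPM in Col1a1 wells of A1/A2 library 2 and 137.0, 57.7 and 9.30 CPM in those of EMP libraries 1, 2 and 4. Igf2 had 0.89 ± 0.31 (SE, edgeR adjusted p = 0.340) and Meg3 0.31 ± 0.11 (adjusted p = 0.128). Mest and Nnat did not pass the filter on low counts in this comparison. The Plagl1 call was lost without EMP library 1 and without EMP library 2, and without EMP library 4 the count was 4 (251 of 5553 genes called).

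A stricter set of 22 wells had at least 0.1% of their transcripts from Col1a1, chosen after the values were seen, and gives single wells rather than replicates. In the 14 of these with at least 10000 transcripts, Igf2 ranged from 3499 to 13806 CPM with a median of 6446 CPM. Nnat was present in all 14, from 326.7 to 2369 CPM with a median of 720.4 CPM, and so was Mest, from 108.5 to 1052 CPM. In the 44 high Apoa1 wells of that depth, Nnat was present in 7 and Mest in 7.

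H19 differed less than Igf2 between Cdh5 and high Apoa1 wells. It had 4634, 8000, 3885 and 5127 CPM in Cdh5 wells of EMP libraries, against 4816, 6352, 5851 and 4938 CPM in their high Apoa1 wells. In high Apoa1 wells of A1/A2 libraries it had 6670, 4636, 3731 and 5478 CPM. Cdh5 and high Apoa1 wells overlapped for H19, where Igf2 did not. Kit wells had 1861, 3278, 2871 and 2411 CPM of H19, below every high Apoa1 sum, where Igf2 of Kit and high Apoa1 wells overlapped. Csf1r wells of A1/A2 libraries had 953.9, 2190, 1751 and 1928 CPM of H19, against 3638 to 5777 CPM in those of EMP libraries 1 to 3.

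The number of H19 transcripts per Igf2 transcript was 1.91, 1.06, 0.924 and 0.930 in Cdh5 wells of EMP libraries 1 to 4, against 4.16, 4.40, 3.48 and 3.70 in their high Apoa1 wells. Kit wells had 1.42, 2.56, 1.82 and 1.76, and Csf1r wells of A1/A2 libraries 3.55, 3.56, 3.83 and 3.83. In high Apoa1 wells of A1/A2 libraries the ratio was 3.68, 3.59, 3.24 and 3.18. The ratio was above 3 in every Csf1r and high Apoa1 sum and below 3 in every Cdh5 and Kit sum. In Csf1r wells of A1/A2 libraries Igf2 lay at 1.08 to 2.41 and H19 at 1.04 to 2.85 times the carry-over level. The part of carry-over in their ratio was not tested, and levels in wells with little Apoa1 are given further on. In Col1a1 wells it ranged from 0.513 in A1/A2 library 1 to 3.72 in EMP library 4.

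**Figure D3:**
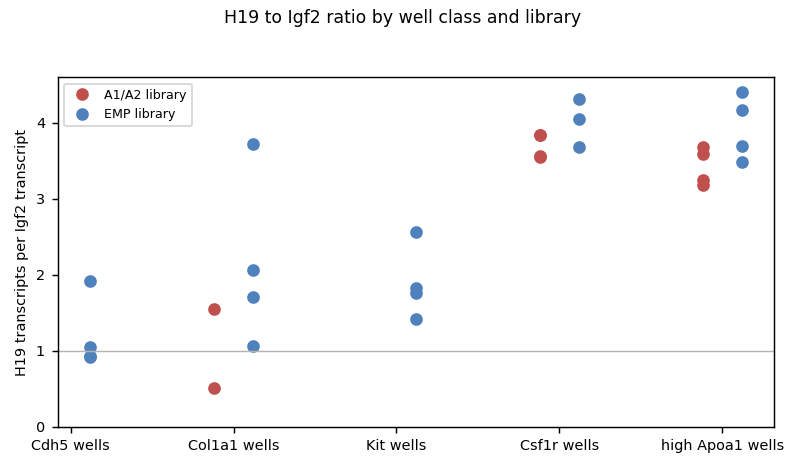
H19 transcripts per Igf2 transcript on a linear axis in Cdh5, Col1a1, Kit, Csf1r and high Apoa1 wells, with 1 point for each library sum (A1/A2 red, EMP blue) and a line at 1. Cdh5 wells sit between 0.924 and 1.91 and high Apoa1 wells between 3.18 and 4.40.

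Kit wells were set against high Apoa1 wells of EMP libraries 1, 2 and 4. Of the 8 members tested, 5 were called lower and 0 higher by edgeR, where 23.4% of 7696 genes were called lower and 21.3% higher. H19 fell by 1.26 ± 0.09 on the log2 scale (SE, edgeR adjusted p = 4.80e-17). Dlk1 fell by 1.89 ± 0.18 (edgeR adjusted p = 3.41e-11), Peg3 by 1.33 ± 0.13 (adjusted p = 2.31e-12), Meg3 by 1.34 ± 0.12 (adjusted p = 4.52e-13) and Cdkn1c by 1.36 ± 0.12 (adjusted p = 1.18e-13). Igf2 (-0.14 ± 0.09), Grb10 (0.31 ± 0.23) and Plagl1 (-0.22 ± 0.36) did not pass. The fit has 2 residual degrees of freedom, and its small p-values rest on a spread shared over all genes, with a median of 48.6 prior degrees of freedom.

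Dlk1 lay on both sides of its carry-over level in Kit wells, and Cdkn1c lay above it in all 4 libraries. Dlk1 had 38.4, 59.3, 72.6 and 84.9 CPM in Kit wells of EMP libraries, which was 0.796 to 1.91 times the carry-over level of the same library, against 215.0, 218.1, 145.5 and 197.6 CPM in high Apoa1 wells. Cdkn1c had 194.6, 281.9, 286.9 and 233.1 CPM in Kit wells, which was 1.36 to 2.46 times the carry-over level, against 538.2, 589.3, 692.5 and 523.7 CPM in high Apoa1 wells. These ranges overlapped between the genes. Kit wells were lower than high Apoa1 wells in all 4 libraries for both genes. In high Apoa1 wells of A1/A2 libraries Cdkn1c had 1388, 453.2, 559.7 and 1351 CPM, so 2 libraries stood well above the others.

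**Figure D4:**
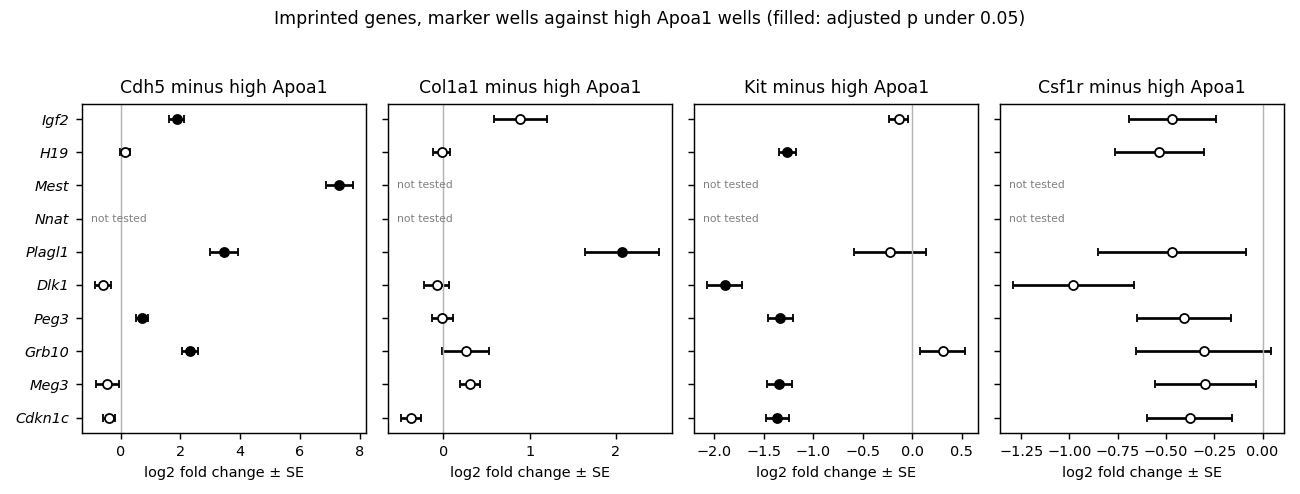
Log2 fold change with its SE for each imprinted gene in Cdh5, Col1a1, Kit and Csf1r wells, each against high Apoa1 wells of the same libraries; filled points have an edgeR adjusted p under 0.05, and each panel has its own axis. Igf2 is at 1.87 in Cdh5 wells and at -0.14 in Kit wells, while Cdkn1c is at -1.36 in Kit wells.

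In Csf1r wells against high Apoa1 wells of A1/A2 library 2 and EMP libraries 1 and 2, 0 of the 8 members tested were called in either direction, where edgeR called 0.015% of 6654 genes lower and 0.887% higher, and 920 genes had an unadjusted p under 0.05. This count depended on which libraries had enough wells. With sums of at least 3 wells, 7 libraries entered and 3 members were called lower, Igf2 (-1.09), H19 (-1.04) and Dlk1 (-1.42). Of all genes, 1554 of 6574 were then called in either direction. With Apoa1 at 0.2% as the limit, all 4 A1/A2 libraries and EMP library 3 entered and 8 were called lower, from -1.35 for Grb10 to -2.70 for Dlk1. In that setting 4995 of 9016 genes were called in either direction, so the count of 8 is not particular to the members. Dlk1 was called without EMP library 2 (-1.49). Log2 fold changes of the 8 genes lay between -0.98 for Dlk1 (edgeR adjusted p = 0.263) and -0.30 for Meg3 (adjusted p = 0.642). The 2 EMP libraries differ from the A1/A2 library here. Their Csf1r wells had 103.8 and 65.9 CPM of Csf1r with 2506 and 4078 CPM of Apoa1, against 286.2 CPM of Csf1r and 1646 CPM of Apoa1 in A1/A2 library 2. The A1/A2 Csf1r wells and the EMP Kit wells hold most of the myeloid and progenitor wells of their groups, so these were compared directly.

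Csf1r wells of the A1/A2 libraries had less Igf2, Mest, Plagl1 and Grb10 than Kit wells of the EMP libraries. These 4 of the 9 members tested were called lower by edgeR, 4 libraries against 4, where 10.3% of 9750 genes were called lower. Igf2 had a log2 fold change of -1.56 ± 0.22 (SE, edgeR adjusted p = 0.000665), Mest of -3.89 ± 0.71 (adjusted p = 0.00272), Plagl1 of -1.68 ± 0.29 (adjusted p = 0.000306) and Grb10 of -1.17 ± 0.17 (adjusted p = 5.99e-05). In this fit Mest passed the filter on low counts only through the Kit wells, so its call as lower was close to set in advance. The count of 4 includes this call and is thus not free of the filter. H19 was at -0.58 ± 0.27 (edgeR adjusted p = 0.184) and Dlk1 at 0.27 ± 0.17 (adjusted p = 0.278). The 12 endothelial markers, all detected in both, summed to 90.2 to 104.2 CPM in the Csf1r wells of A1/A2 libraries, against 515.4 to 590.5 CPM in the Kit wells of EMP libraries, and their part in the difference was not tested. In Cdh5 wells of EMP libraries they summed to 1429 to 4473 CPM. Class and sort cannot be told apart here, since each class comes from 1 group.

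The same comparison was repeated in wells with Apoa1 under 0.05% of transcripts, a cut-off chosen after the values were seen. Of the 6 members tested, 3 were called lower by edgeR, where 13.7% of 7548 genes were. Igf2 had 120.1, 226.3, 119.9 and 140.0 CPM in such Csf1r wells of A1/A2 libraries 1 to 4, against 1630, 1134, 1443 and 1369 CPM in such Kit wells of EMP libraries 1 to 4. The groups lay further apart than with all wells of the classes, at a log2 fold change of -3.17 ± 0.23 (SE, edgeR adjusted p = 7.56e-06). H19 had 316.9, 714.4, 559.9 and 670.0 CPM in these Csf1r wells, against 1463, 1693, 1271 and 1482 CPM in these Kit wells, and passed here, at -1.34 ± 0.25 (edgeR adjusted p = 0.00656). Grb10 had 10.6, 6.93, 21.2 and 15.7 CPM in the Csf1r wells, against 65.2, 58.1, 78.9 and 61.0 CPM in the Kit wells (log2 fold change -2.26 ± 0.25 SE, edgeR adjusted p = 4.93e-08).

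In the same wells Dlk1 had 10.6, 11.9, 8.74 and 15.0 CPM in Csf1r wells of A1/A2 libraries, against 23.4, 6.12, 10.2 and 15.2 CPM in Kit wells of EMP libraries. Meg3 had 10.6, 36.6, 21.2 and 32.1 CPM in the Csf1r wells, against 50.5, 55.0, 58.5 and 16.6 CPM in the Kit wells. Both genes were lower than in all wells of the class in every library, and their groups overlapped. Plagl1 had 7.93, 0.99, 6.24 and 4.77 CPM in the Csf1r wells, against between 6.12 and 44.3 CPM in the Kit wells. Plagl1, Mest, Nnat and Dlk1 did not pass the filter on low counts here. Cdkn1c had 20.3, 30.7, 67.5 and 69.0 CPM in the Csf1r wells, against 130.5, 97.9, 77.5 and 84.6 CPM in the Kit wells, and did not pass (log2 fold change -1.03 ± 0.42 SE, edgeR adjusted p = 0.117).

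**Figure D5:**
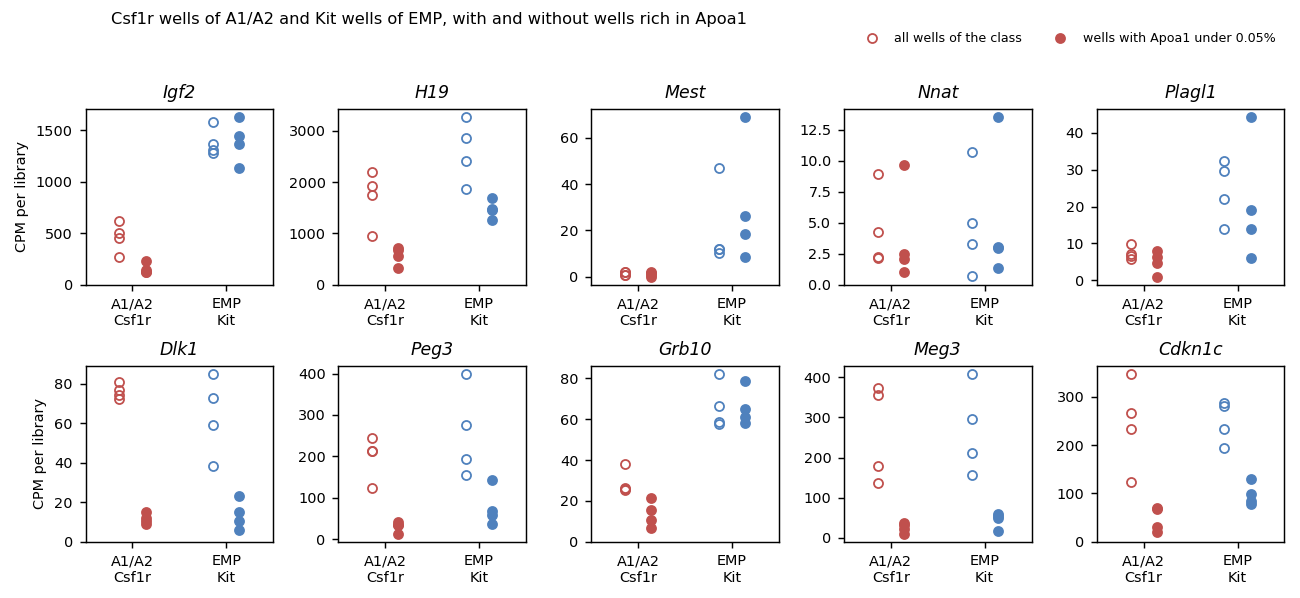
CPM of each imprinted gene in Csf1r wells of A1/A2 libraries (red) and Kit wells of EMP libraries (blue), 4 libraries each, in all wells of the class (open points) and in wells with Apoa1 under 0.05% of transcripts (filled points). Igf2 of Kit wells stays between 1134 and 1630 CPM in the filled points, while Dlk1 and Meg3 lie far below the open points in both groups.

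Cdh5 wells with Apoa1 under 0.05% also held the genes. Igf2 had 3916, 8524, 4418 and 9162 CPM in these wells of EMP libraries 1 to 4, and Mest 1032, 1330, 300.6 and 1116 CPM. Plagl1 had 573.2, 160.9, 176.1 and 265.1 CPM. These sums rest on 2, 2, 6 and 5 wells, and their Igf2 levels were above those of all Cdh5 wells in each library.

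Genes with the pattern most like each imprinted gene were found by Pearson's r of log2(CPM + 10) over 25 sums of library and class, among the 3326 genes that averaged 50 CPM or more. The sums share libraries and differ in depth, so r is a description. Igf2 was most like Tgfbr3 (0.92), Plagl1 (0.92) and Fn1 (0.91). Mest was most like Fstl1 (0.95), Plagl1 (0.93) and App (0.92). Plagl1 was most like Mest (0.93), Nrp2 (0.92) and Igf2 (0.92), so Plagl1 was among the 3 genes most like Igf2 and most like Mest, and both were among its own. Grb10 was most like Tspan18 (0.93), Tpm4 (0.91) and Ramp2 (0.90).

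Nnat was most like Col1a2 (0.96), Col3a1 (0.95) and Acta2 (0.93), which encode fibrillar collagens and smooth muscle actin. Meg3 was most like Rian (0.91), Bicc1 (0.88) and Mirg (0.86), of which Rian and Mirg are noncoding genes of the Dlk1 and Meg3 domain. Dlk1 was most like the keratins Krt8 (0.89) and Krt18 (0.86) and Stard8 (0.86). Cdkn1c was most like Ubqln2 (0.92), Slc39a4 (0.89) and the epithelial cadherin Cdh1 (0.89). H19 was most like Cttn (0.94), Ctnna1 (0.91) and Mpzl1 (0.90), and Peg3 like Sparc (0.94), Fermt2 (0.91) and Igf2r (0.90). Between Igf2 and H19 themselves r was 0.68, and between Dlk1 and Meg3 it was 0.70.

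Of a list of 64 further imprinted genes, 43 were tested over all kept wells, and 13 were called lower and 1 higher in A1/A2 than in EMP libraries by edgeR, with a median log2 fold change of -0.21 against -0.02 over all genes, where 15.4% of all genes were called lower and 17.3% higher. Igf2r, the receptor that removes IGF2 from the cell surface, was lower by -0.90 ± 0.16 (SE, edgeR adjusted p = 0.00214), Sgce by -0.98 ± 0.18 (adjusted p = 0.00209) and Rian by -0.93 ± 0.17 (adjusted p = 0.00253). The gene called higher was Mcts2 (0.51), named after its values were seen. Of 26 IGF pathway genes, which include Igf2 and Grb10, 21 were tested and 13 were called lower and 0 higher, with a median of -0.56, against the same 15.4% and 17.3% of all genes. Igf1, the second IGF ligand, was lower by -1.93 ± 0.26 (SE, edgeR adjusted p = 0.000269) and Igfbp4, an IGF binding protein, by -0.87 ± 0.13 (adjusted p = 0.000493). Of 12 genes that maintain imprints or their chromatin, 8 were tested, and Eed (0.63 ± 0.12, edgeR adjusted p = 0.00183) and the methylation cofactor Uhrf1 (0.44 ± 0.12, adjusted p = 0.0167) were called higher, 2 of 8 where 17.3% of all genes were.

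In Kit wells against high Apoa1 wells, 16 of 31 further imprinted genes tested were called lower and 9 higher by edgeR, with a median of -0.50 against 0.03 over all genes, where 23.4% of all genes were called lower and 21.3% higher. Phlda2, a maternally expressed gene that limits placental growth, was lower by -1.85 ± 0.11 (SE, edgeR adjusted p = 1.70e-18) and Peg10, which is needed for the placenta, by -1.65 ± 0.13 (adjusted p = 1.37e-15). Of 8 imprint maintenance genes tested, 5 were called higher, against the same 21.3% of all genes, among them Trim28 (0.71 ± 0.11, edgeR adjusted p = 5.89e-07) and Dnmt1 (0.88 ± 0.17, adjusted p = 2.76e-05), the maintenance methyltransferase. Of 17 IGF pathway genes tested, 4 were called higher and 6 lower. Those lower were led by Igf2r (-1.54 ± 0.15 SE, edgeR adjusted p = 3.65e-12) and Igf2bp2, which encodes a binding protein of Igf2 mRNA (-1.06 ± 0.14, adjusted p = 1.03e-08). Igf1r, the receptor through which IGF2 signals, was higher by 3.93 ± 0.28 in Kit wells (SE, edgeR adjusted p = 1.69e-16) and by 2.75 ± 0.36 in Col1a1 wells (adjusted p = 1.40e-07). In Cdh5 wells 1 of 20 further imprinted genes was called, Cd81, at 1.37 ± 0.30 (SE, edgeR adjusted p = 0.0211), a share near the 4.74% of all genes called higher.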

How the data were processed

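Cells of the E9.5 yolk sac of wild type mice were read by mCEL-Seq2 in 4 A1/A2 and 4 EMP libraries. The deposited tables give estimated counts, the unique identifiers per gene and well corrected by the authors for identifiers seen more than once. This was read from the values, of which 100% returned whole numbers of identifiers within a tolerance of 1e-06. Alignment used BWA 0.6.2-r126, and Seurat is named too, per the submitters' processing notes. The genome build is not given in the sources used here. A further table holds 689 wells, all identical to wells of the library tables, and was not counted again.

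Wells with at least 1000 transcripts were kept and classed as the report describes. A class needed at least 2 transcripts of its marker, and the wells near the limit of 0.5% were 111 at 0.4% to 0.5% and 40 at 0.5% to 0.6%. No doublet caller was run, and 352 wells held 2 or more of the 4 markers. Wells are not replicates, so estimated counts were summed per library and class, rounded, and tested with edgeR 4.0.16 (robust quasi-likelihood test, TMM, filterByExpr), p-values being adjusted over all genes tested by the Benjamini-Hochberg method, under R 4.3.3. Comparisons of classes had library as a block and left out the genes that set the classes. DESeq2 1.42.0 was an alternative. The code was tested on simulated data for 3 comparisons, and for all kept wells 61.8% of genes changed by 1 on the log2 scale and 100% of those changed by 2 were recovered.

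The 10 genes and all lists were chosen with earlier results of these data known. Named beside them are the 3 genes most like each in pattern, and up to 4 genes of each list with the smallest p among those that passed. The comparison of Csf1r with Kit wells, the difference of differences, the wells with little Apoa1 and the wells with 0.1% Col1a1 were added after seeing the data. Library numbers are shared between the groups but were not taken as pairs. RefSeq sequences came from GRCm38.p6, whose relation to the authors' build is not known, and the tables were matched by symbol.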

Additional observations from a re-analysis of the deposited data

Results flagged for a closer look

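In groups of 4 libraries, 1 library stood far from the other 3 in 7 of 80 groups tested, where chance flags about 1 in 20. Igf2 over all wells was 907.6 CPM in A1/A2 library 2, against at most 596.3 CPM in the other A1/A2 libraries. H19 over all wells was 5416 CPM in EMP library 2, against at most 3805 CPM in the other EMP libraries. In Cdh5 wells Nnat was 262.1 CPM in EMP library 2, from 15.0 counts. In Csf1r wells Grb10 was 38.0 CPM in A1/A2 library 3, and in Kit wells Mest was 46.9 CPM in EMP library 1. In high Apoa1 wells Nnat was 25.7 CPM in A1/A2 library 3, from 6.00 counts, and Peg3 was 808.9 CPM in A1/A2 library 1, from 21.0 counts.

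The difference between A1/A2 and EMP libraries was not the same in high Apoa1 wells as in all other wells for 8 genes, by the test of that difference itself. On the log2 scale, the difference in high Apoa1 wells minus that in other wells was 1.39 for Igf2, 0.76 for H19, 3.37 for Mest, 1.25 for Dlk1, 1.07 for Peg3, 1.30 for Grb10, 0.93 for Meg3 and 1.02 for Cdkn1c. Mest rests on at most 8 counts a library in high Apoa1 wells.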

How the results depend on the processing

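The count of members called stayed within 1.5 times its value in 14 of 15 alternatives for all wells, 14 of 16 without the high Apoa1 wells, 10 of 11 for Kit wells, 14 of 14 for Csf1r against Kit wells, 10 of 14 for high Apoa1 wells, 7 of 10 for Cdh5, 7 of 12 for Csf1r, 3 of 13 for Col1a1 and 7 of 9 for the difference of differences. Some of these alternatives were not separate. For the test without the high Apoa1 wells, a limit of 1% Apoa1 removed no well, so it repeated the test of all wells. For Csf1r and for Col1a1, EMP libraries alone and leaving out A1/A2 library 2 were the same fit. Thinning wells to 1000 transcripts left 3 called over all wells and 3 without the high Apoa1 wells, and Apoa1 under 0.05% left 5 in the second of these. In that order, 128 of 2320, 134 of 2192 and 2509 of 8408 genes were called in either direction. With each library left out, the counts ranged from 0 to 1 in high Apoa1 wells, 1 to 6 for Cdh5, 0 to 1 for Csf1r, 0 to 4 for Col1a1 and 4 to 8 for the difference of differences. The labels do not say that library numbers mark pairs, and deviations of same-numbered libraries correlated at 0.36, 0.63, -0.04 and 0.40, so no pairing was taken. The replicate block gave 8 called over all wells, with Dlk1 (-0.41) and Meg3 (-0.66) passing and Mest (-2.19) not, 8 without the high Apoa1 wells, 5 for Csf1r against Kit wells and 1 in high Apoa1 wells, where Dlk1 then passed. In that order, this block called 4736 of 11144, 4879 of 10911, 2896 of 9750 and 72 of 3682 genes in either direction. With it, Cdkn1c was at -0.060 for Csf1r against Kit wells. Libraries 1, 2 and 4 correlated best with their own number and library 3 did not.

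With Apoa1 at 0.2% as the limit, members called numbered 3 in high Apoa1 wells, 8 for Cdh5, 8 for Csf1r, 8 for Kit and 0 for Col1a1. In the same order, 881 of 9618, 1919 of 8625, 4995 of 9016, 5974 of 9413 and 28 of 6574 genes were called in either direction. Log2 fold changes that turned sign with it were Igf2 -0.63, Peg3 -0.28, Grb10 -0.52, Meg3 -0.070 and Cdkn1c -0.051 between A1/A2 and EMP high Apoa1 wells, H19 -0.23 and Peg3 -0.30 for Cdh5, Grb10 -0.17 for Kit, Dlk1 0.84, Peg3 0.20 and Meg3 -0.29 for Col1a1, and Cdkn1c -0.33 for Csf1r against Kit wells. No well reached 1% Apoa1, so that limit could not be run for the classes; it gave Meg3 0.062 for Csf1r against Kit wells. Counting any well with a marker transcript called 9 for Cdh5 (H19 -0.55, Peg3 -0.32), 2 for Csf1r (Plagl1 0.36, Grb10 0.062), 3 for Col1a1, and turned Plagl1 to 0.58 for Kit. Of all genes it called 2113 of 6977 for Cdh5, 1015 of 7767 for Csf1r and 374 of 6758 for Col1a1. Wells with 1 of the 4 markers gave 3 for Col1a1 (53 of 5224 genes, H19 0.18, Grb10 -0.11) and Cdkn1c 0.12 for Csf1r, and could not be run for Cdh5. Without a filter on low counts, 1 was called for Csf1r (467 of 17832 genes) and 5 for Col1a1 (351 of 17601 genes). It gave H19 -0.10 for Cdh5 and Igf2 -0.030 between high Apoa1 wells. At least 3 wells a sum gave 3 for Csf1r (1554 of 6574 genes), H19 -0.011 for Cdh5 and Peg3 0.016 for Col1a1. Col1a1 had 0 called with DESeq2, 0 with no block (Peg3 0.020) and 2 with library totals (241 of 5465 genes). EMP libraries alone gave Grb10 0.0048 and Meg3 0.15 for Csf1r, and A1/A2 libraries alone could not be run. Library totals gave Igf2 0.011 for Kit, and -0.033 for Cdkn1c of Csf1r against Kit wells, where DESeq2 gave -0.0057 and Apoa1 under 0.05% gave -1.03. Library totals put the median log2 fold change of all genes at 0.18 for Kit, against 0.03 with TMM. Of these sign changes, Peg3 for Cdh5 was the one whose value had passed the test. The cause of these changes was not tested.

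With 1 library left out, sign changes occurred for Nnat over all wells (-0.99 to 0.14) and without high Apoa1 wells (-0.95 to 0.15), Igf2 between high Apoa1 wells (-0.070 to 0.14), Meg3 for Cdh5 (-0.97 to 0.081), Grb10 (-0.73 to 0.0048) and Meg3 (-0.56 to 0.15) for Csf1r, Plagl1 for Kit (-0.46 to 0.48), Grb10 (-0.073 to 0.51), Dlk1 (-0.18 to 0.014), Peg3 (-0.19 to 0.14) and H19 (-0.052 to 0.0028) for Col1a1, Meg3 (-0.24 to 0.29) and Cdkn1c (-0.23 to 0.22) for Csf1r against Kit wells, and Nnat in the difference of differences (-2.10 to 3.25). None of these values had passed the test. Depth limits the genes with few transcripts, above all Mest and Nnat in high Apoa1 wells.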
